A study of Mus musculus with 59 samples.

Results

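Expression of 8 genes that handle arsenic was followed in mouse liver. They were the aquaporin genes Aqp9, Aqp8, Aqp7 and Aqp3 (uptake), the omega-class glutathione transferase genes Gsto1 and Gsto2 and the purine nucleoside phosphorylase gene Pnp (reduction), and the arsenic methyltransferase gene As3mt (methylation). The genes were picked by name, with earlier results of these data known. They are 8 of the 18193 genes that the arrays measure with a probe set of a single gene symbol, and they have 14 of the 45037 probe sets tested. Where a gene has several, its brightest probe set by the mean of the 59 arrays stands for it, and the others are given where they bear on a result.

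Liver RNA of male C57BL/6 mice, 6 weeks old before 2 weeks on their diet, was hybridised to 1-colour Affymetrix mouse arrays, with 1 array per sample. Mice ate LRD-5001 (here LRD) or AIN-76A (here AIN), both commercial laboratory diets, for 5 weeks with 10 or 100 ppb sodium arsenite in the drinking water, with 10 ppb in repelleted food, or with none added as the control. Other mice, all on AIN, received an intraperitoneal injection of 1 mg/kg dexamethasone (a synthetic glucocorticoid) with 1 mg/kg sodium arsenite, of dexamethasone alone, of arsenite alone, or of saline, and were sampled at 8 hours. Each of the 12 groups has 5 arrays, except the AIN group at 100 ppb in water, which has 4. Samples of 1 group are biological replicates by their labels. A p-value here therefore weighs a difference against the spread of these mice, and precision is limited by how many arrays there are.

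Inorganic arsenic reaches the liver as arsenite or arsenate. Arsenite enters cells mainly through aquaglyceroporins, membrane channels for glycerol and other small uncharged solutes, and Aqp9 is the one known for this in liver. Arsenate has to be reduced before it can be methylated. Purine nucleoside phosphorylase can drive that reduction in the test tube, and omega-class glutathione transferases can reduce arsenate and methylated arsenic there. As3mt transfers methyl groups from S-adenosylmethionine to arsenite, which gives the forms that leave in the urine.

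The values are log2 expression values, so a difference of 1 is a doubling, and levels of different probe sets cannot be set against each other. The arrays' medians lie between 2.42 and 2.59 and their upper quartiles between 3.73 and 4.29. In each of the 12 groups, 1 array was set apart by rule. It had the lowest score on the component that holds the most variance within groups (27.6%). That component was turned so that its score rises with the upper quartile, so a lower upper quartile is partly built in. Set against the rest of their groups, these 12 arrays differed in upper quartile by a mean of -0.27, and 3 of the genes were lower in most of them: Pnp in 11 groups (mean difference -0.30), As3mt in 10 (-0.31) and Aqp9 in 10 (-0.21). Of 4 measured hepatocyte genes, Alb (13.60 to 13.98), Apoa1 (13.51 to 13.89) and Ttr (13.17 to 13.62) were bright on every array near the top of the scale, and Cps1 ranged more widely, from 11.54 to 13.31. Saline replicate E had the highest mean of 5 neutrophil genes of all arrays (7.38) and the highest level of the macrophage gene Marco (8.71, against at most 7.56 elsewhere). Of those 5 neutrophil genes, Camp, Elane and Ngp were dim, with means of 2.30, 2.43 and 2.49 over all arrays. S100a8 averaged 3.70 and S100a9 4.27, so a mean of the 5 can rest largely on S100a8 and S100a9. Replicate D of the AIN group given 10 ppb in food also had fat cell genes, with Adipoq at 7.24 against at most 2.51 on any other array, and Aqp7, a fat cell aquaglyceroporin, was at 2.00 there. In such bulk tissue, fewer cells of a type and less RNA per cell cannot be told apart.

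The diet or dexamethasone changed Gsto1 and Aqp9 in the tests below, and the 250 bases before an annotated start of each are given to show what these genes carry there. The sequences are from RefSeq for GRCm38.p6, each read 5′ to 3′ on the gene's strand. Gsto1 lies at chr19:47854973-47864790 on the plus strand, and the stretch is chr19:47854723-47854972. Aqp9 lies at chr9:71110659-71167849 on the minus strand, and the stretch is chr9:71163290-71163539, inside the annotated span of the gene, in front of the first of 2 starts listed. Capitals mark a match to TGTTCT, an arm of the palindromic glucocorticoid response element, read on either strand.
Gsto1: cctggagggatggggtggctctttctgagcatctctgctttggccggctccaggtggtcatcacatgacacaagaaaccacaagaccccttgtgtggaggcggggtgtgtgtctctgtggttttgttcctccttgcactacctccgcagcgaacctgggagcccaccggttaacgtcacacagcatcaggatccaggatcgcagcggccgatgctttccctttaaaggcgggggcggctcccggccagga
Aqp9: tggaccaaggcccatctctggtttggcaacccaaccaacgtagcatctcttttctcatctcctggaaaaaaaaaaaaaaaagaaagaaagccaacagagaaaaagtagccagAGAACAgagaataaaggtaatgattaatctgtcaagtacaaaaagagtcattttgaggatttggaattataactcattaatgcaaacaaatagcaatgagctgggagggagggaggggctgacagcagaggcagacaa
The match in Aqp9 begins at position -138 from the start and reads as the reverse complement. Over all 32851 promoters searched in the same window, 16.1% hold TGTTCT on either strand, so a match is common. It is a description and not a binding site. The full palindrome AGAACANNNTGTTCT was found in 0.00913% of promoters and in none of the 11 starts of the 8 genes. The antioxidant response element core TGACNNNGC was found in 10.2% of promoters and also in none of these starts. The second Aqp7 start was the only other one of the 11 with TGTTCT.

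Aqp9, the main arsenite channel of liver, was bright on every array, between 9.08 and 10.70. Its highest group mean was 10.51 ± 0.10 (SD, n = 5) in LRD mice at 100 ppb, and its lowest was 9.45 ± 0.28 (SD, n = 5) after dexamethasone with arsenite. The 4 LRD groups held the 4 highest means, the injected groups without dexamethasone and the AIN groups came next between 10.15 and 10.24, and the dexamethasone groups were last. Neighbours in that order had overlapping ranges at each of the 11 steps. In 2 of these steps the means differed by more than the pooled SD. They were the step between LRD mice at 10 ppb in water and saline (0.18, pooled SD 0.13) and that between AIN mice at 100 ppb and injected dexamethasone (0.49, pooled SD 0.28). Aqp8, a channel for water that also passes ammonia and hydrogen peroxide, varied most among the 8 genes, from 3.38 to 9.61. Its group means ran from 5.90 ± 2.25 (SD, n = 4) in AIN mice at 100 ppb to 8.98 ± 0.51 (SD, n = 5) in AIN mice at 10 ppb in water.

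Gsto1 lay between 6.54 and 8.69, with the 4 LRD groups between 8.49 and 8.57 and the 8 AIN-fed groups, injected ones included, between 7.45 and 8.10. Pnp lay between 8.58 and 10.88, with its highest mean, 9.92 ± 0.77 (SD, n = 4), in AIN mice at 100 ppb and its lowest, 8.87 ± 0.23 (SD, n = 5), after dexamethasone. As3mt lay between 5.41 and 8.07, from 6.19 ± 0.57 (SD, n = 5) in LRD mice at 100 ppb to 7.26 ± 0.30 (SD, n = 5) after dexamethasone with arsenite. For As3mt, each of the 11 steps between neighbouring group means was smaller than the pooled SD of the 2 groups.

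**Figure D1:**
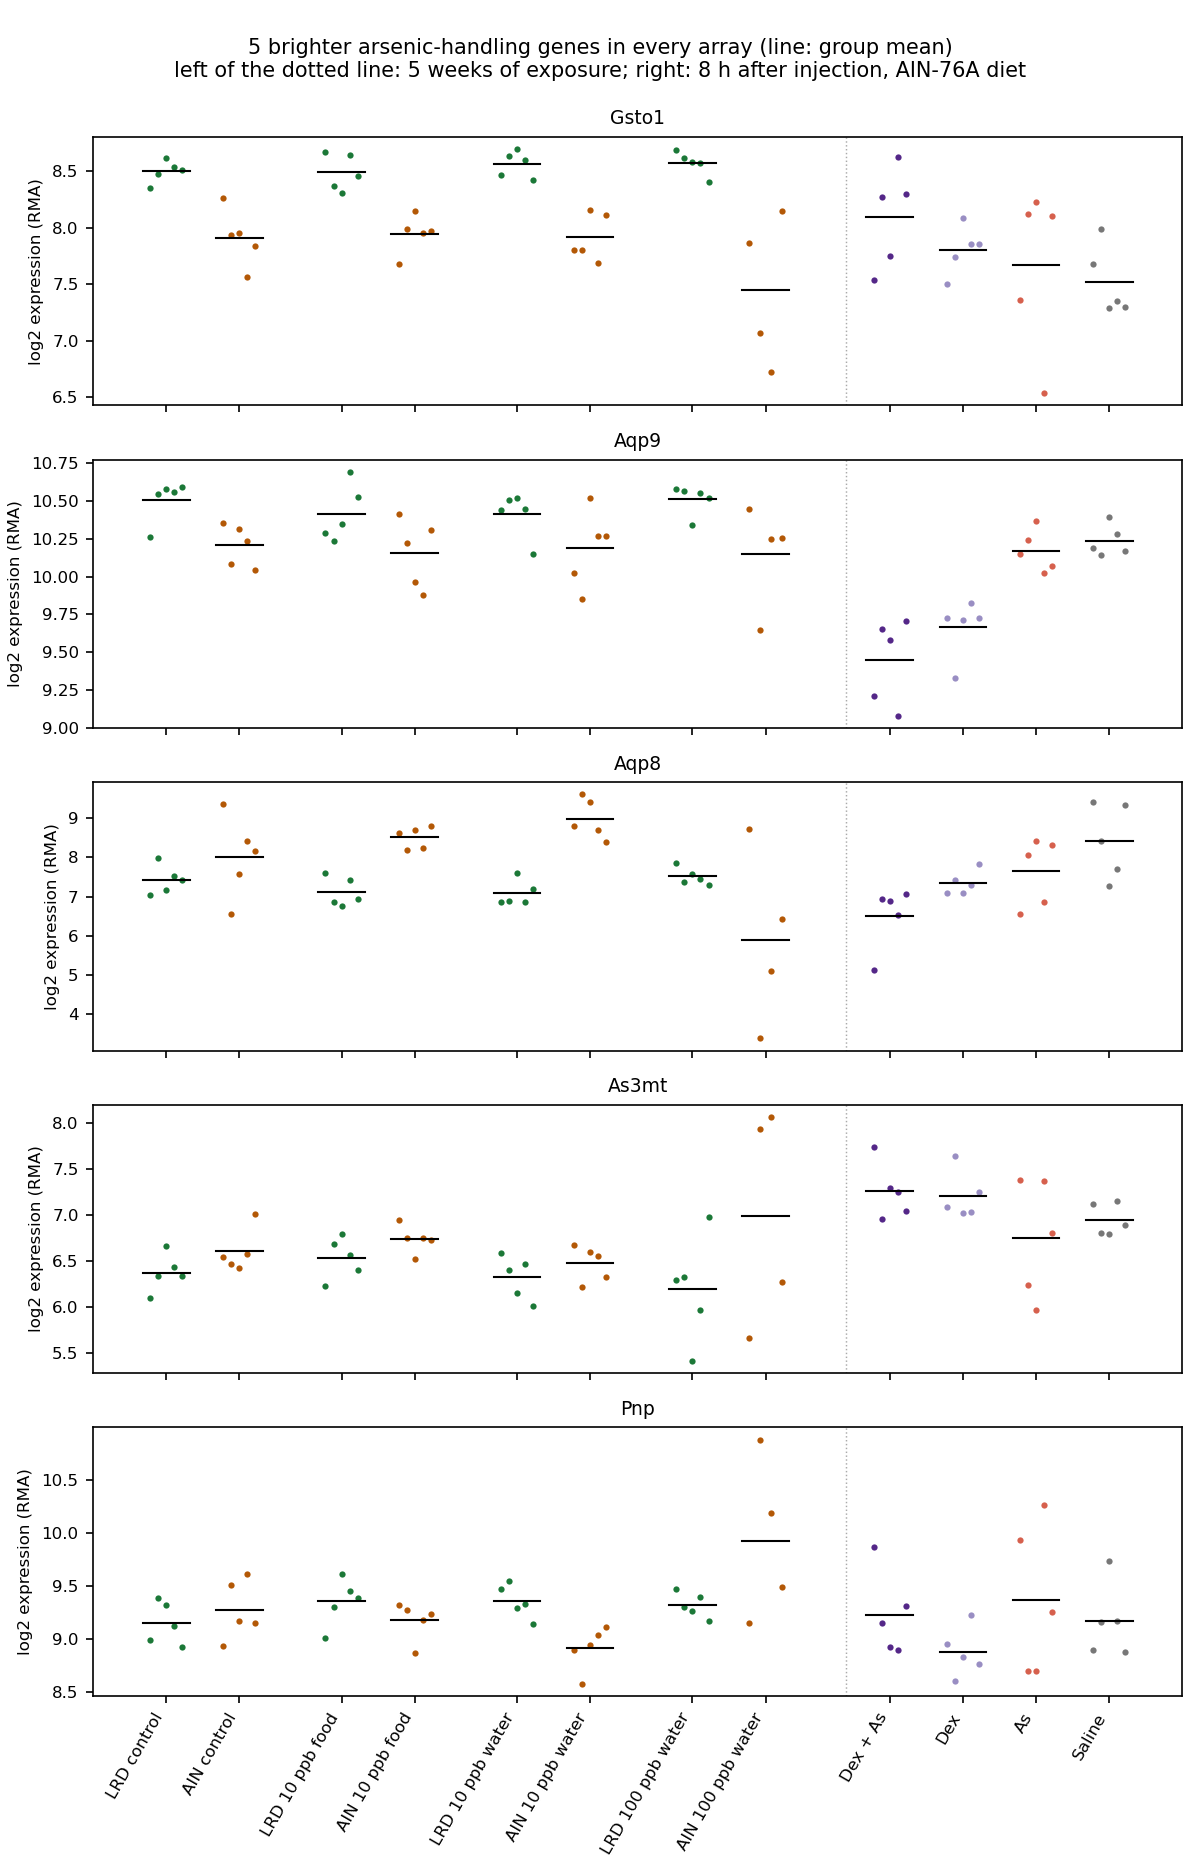
Log2 expression (vertical axis) of Gsto1, Aqp9, Aqp8, As3mt and Pnp on each of the 59 arrays, by group, with a line at the group mean; Dex is dexamethasone and As is sodium arsenite. For Gsto1 all 20 LRD arrays (green) lie above all 19 AIN arrays of the 5-week experiment (orange), for Aqp9 the 10 arrays with dexamethasone lie below the other 10 injected arrays, and AIN mice at 100 ppb are spread widely in Aqp8, As3mt and Pnp.

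The other 3 genes were dim. Gsto2, the second omega-class transferase, lay between 1.64 and 2.5, Aqp7 between 1.93 and 2.5, and Aqp3, an aquaglyceroporin of kidney and skin, between 2.02 and 3.58. All 3 have their group means near or below the array medians, with ranges of group means of 0.27 for Gsto2, 0.22 for Aqp7 and 0.47 for Aqp3. The 3 further probe sets of Aqp3 and the further one of Aqp7 had means between 1.72 and 2.33. None of the 3 genes passed the test in any of the 24 contrasts. RMA draws dim probe sets together, so a change in them can be understated.

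**Figure D2:**
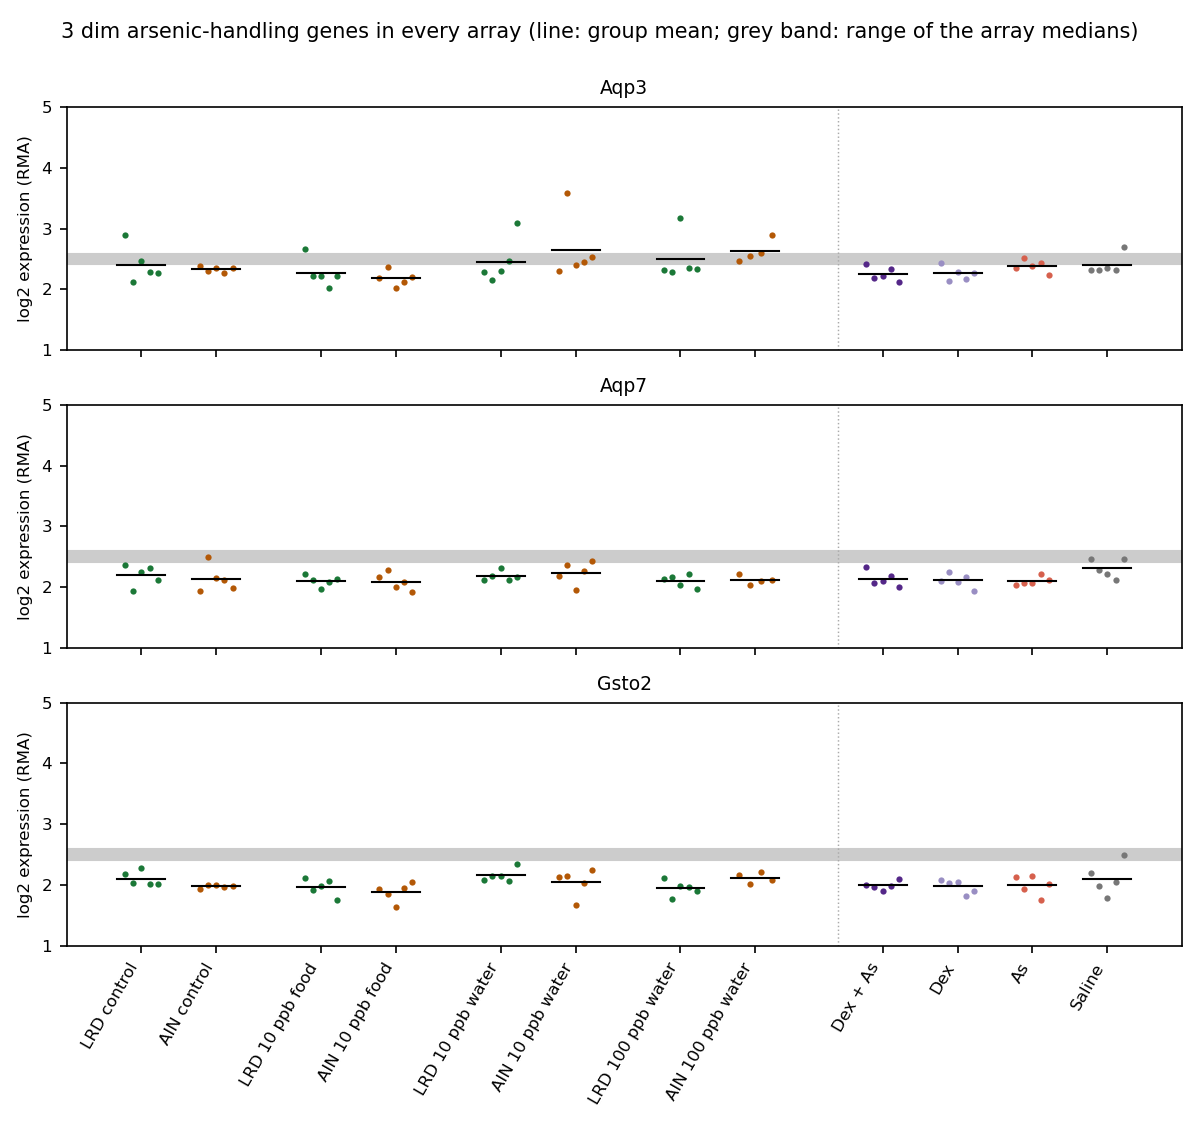
Log2 expression (vertical axis) of Aqp3, Aqp7 and Gsto2 on each of the 59 arrays, by group, with a line at the group mean and a grey band over the range of the array medians, 2.42 to 2.59. Most points lie at or below the band, and the highest Aqp3 value, 3.58, is an AIN array at 10 ppb in water.

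Diet was compared first, over the 4 exposure levels together. Gsto1 and Aqp9 were higher in LRD mice than in AIN mice, by 1.65-fold and 1.22-fold, and the other 6 genes did not pass. Averaged over the levels, limma with Benjamini-Hochberg adjustment over all probe sets at a threshold of 0.05 called 2 of the 8 genes higher and 0 lower, against 2.67% of all probe sets higher, 1.59% lower and 4.26% in either direction. At an unadjusted p under 0.05 there were 4 of the 8. The median difference of the 8 genes was -0.02, against -0.01 over all probe sets.

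Gsto1 in LRD mice ran from 8.31 to 8.69 with a median of 8.55 over 20 arrays, against 6.72 to 8.26 with a median of 7.94 over 19 arrays in AIN mice. Every LRD array therefore lay above every AIN array, which 0.0622% of all probe sets showed in either direction. The difference was 0.72 (SE 0.08, limma adjusted p = 9.2e-08), and it was 0.82 without the 12 arrays that lay apart. The second Gsto1 probe set differed by 1.13 (SE 0.22, adjusted p = 0.000902), but there the diets overlapped, at 5.55 to 8.28 in LRD mice and 4.03 to 6.99 in AIN mice.

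Aqp9 in LRD mice ran from 10.15 to 10.70 with a median of 10.52, against 9.65 to 10.52 with a median of 10.25 in AIN mice. The diets overlapped, and the difference was 0.29 (SE 0.06, limma adjusted p = 0.00431). The second Aqp9 probe set differed by 0.40 (SE 0.09, adjusted p = 0.00631). Neither Gsto1 nor Aqp9 lost its call under any of 9 other settings or without any single array.

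As3mt and Aqp8 had negative differences that did not pass. As3mt ran from 5.41 to 6.98 with a median of 6.37 in LRD mice, against 5.66 to 8.07 with a median of 6.58 in AIN mice, a difference of -0.35 (SE 0.14, adjusted p = 0.22). Without replicate A of the AIN group at 100 ppb, the lowest AIN array, it was called at -0.46 (adjusted p = 0.0167). Aqp8 ran from 6.76 to 7.98 with a median of 7.33 in LRD mice, against 3.38 to 9.61 with a median of 8.41 in AIN mice. The LRD values lay inside the AIN range, and the difference was -0.57 (SE 0.26, adjusted p = 0.294). Without replicate B of the AIN group at 100 ppb, the lowest array of all, it was called at -0.78 (adjusted p = 0.0283). Pnp differed by -0.03 with a 95% confidence interval of -0.22 to 0.16, so a diet effect of the size of that in Gsto1 lay outside its interval.

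Within single exposure levels, Gsto1 showed separated diets each time. Its difference was 0.59 (adjusted p = 0.101) in controls, 0.65 (adjusted p = 0.0673) at 10 ppb in water, 1.12 (SE 0.17, adjusted p = 0.000169) at 100 ppb in water and 0.54 (adjusted p = 0.269) at 10 ppb in food. The diets were separate at all 4 levels, a pattern that 0.142% of all probe sets had. Separate diets at a single level were more common, in 1.85% of probe sets in controls and 4.3% at 100 ppb. In controls the dim Gsto2 was separate too, at 2.013 to 2.273 in LRD mice and 1.943 to 2.005 in AIN mice (difference 0.12, limma adjusted p = 0.899). The Gsto1 difference at 100 ppb was the only one of 32 tests of the 8 genes that passed, where 2.05% of all probe sets were called at that level. It was not called when only the 2 groups compared entered the fit (adjusted p = 0.123). In controls 0.568% of probe sets were called, at 10 ppb in water 0.344%, and at 10 ppb in food 0.295%. Among the 32, 13 had an unadjusted p under 0.05.

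Aqp8 differed between the diets in opposite directions across these levels, though none of its differences passed. At 10 ppb in water it had 6.85, 6.89, 7.60, 6.86 and 7.20 in LRD mice and 8.79, 9.61, 9.41, 8.69 and 8.38 in AIN mice. The groups did not overlap, as for 1.76% of all probe sets, and the difference was -1.90 (SE 0.51, adjusted p = 0.119). Pnp was also separate there, with LRD values of 9.14 to 9.54 and AIN values of 8.58 to 9.12 (difference 0.44, adjusted p = 0.566). At 10 ppb in food the groups did not overlap either (1.43% of probe sets), with a difference of -1.40 (SE 0.51, adjusted p = 0.629). At 100 ppb it was 1.61 (SE 0.54, adjusted p = 0.125). With only the 2 groups compared in the fit, the difference at 10 ppb in water (adjusted p = 0.00426) and that in food (adjusted p = 0.00974) were called, as was Gsto1 at 10 ppb in water (adjusted p = 0.0307).

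**Figure D3:**
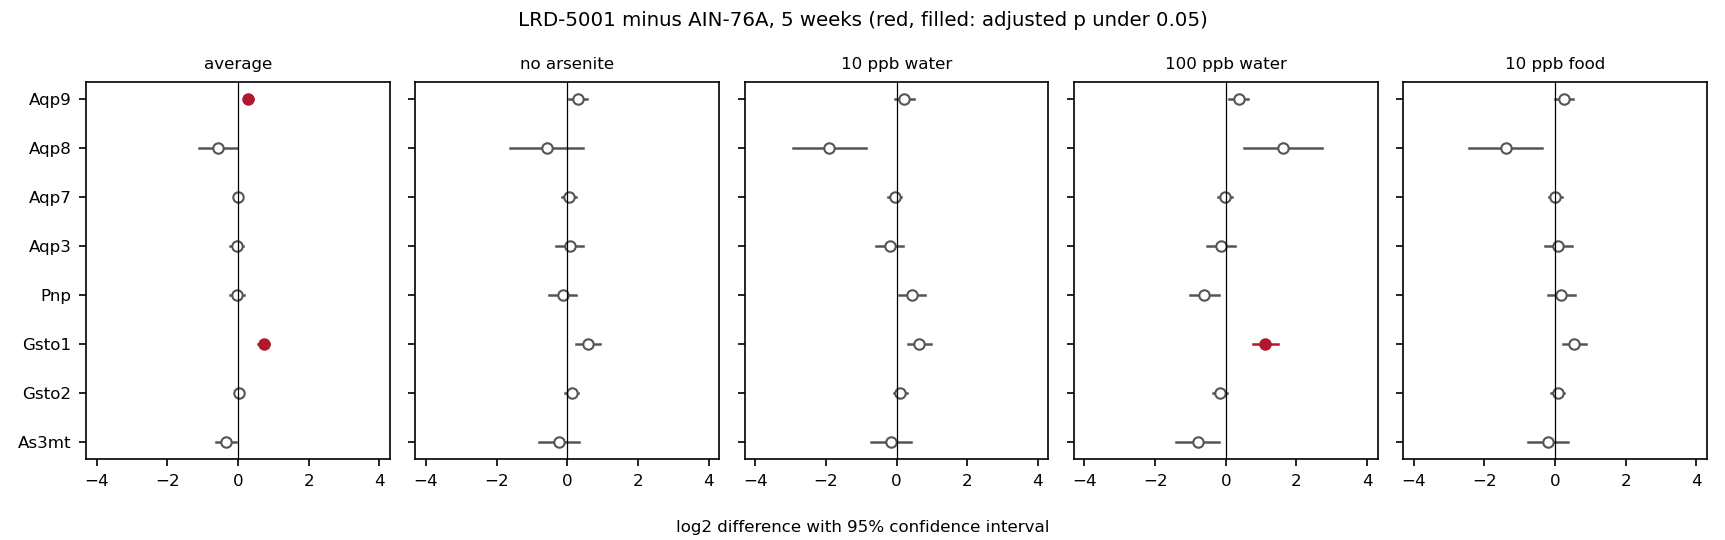
Difference of LRD minus AIN (horizontal axis, log2, with its 95% confidence interval) for each of the 8 genes, averaged over exposures and at each exposure level; filled red points passed the test. Gsto1 lies right of 0 in every panel (0.54 to 1.12), Aqp9 passed only in the average (0.29), and Aqp8 lies left of 0 at 10 ppb and right of it at 100 ppb.

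Several other genes of arsenic export, thiol and methyl supply were also higher in LRD mice in the averaged comparison. There 2.67% of all probe sets were called higher and 1.59% lower, with a median difference of -0.01 over all probe sets. Of 11 other arsenic transporters, 4 were higher and 0 lower (median difference 0.29). Abcc3, an efflux pump of conjugates, differed by 2.78 (SE 0.16), the bile canaliculus pump Abcc2, which exports arsenic bound to glutathione, by 0.56 (SE 0.06), the organic anion carrier Slco1b2 by 0.32 (SE 0.07) and the efflux pump Abcb1a by 0.17 (SE 0.04). Of 10 genes of thiol supply, 4 were higher and 0 lower (median 0.19). These were Cth, which makes cysteine from cystathionine (1.06, SE 0.10), the glutathione synthesis genes Gclm (0.33, SE 0.06) and Gss (0.37, SE 0.10), and the thioredoxin gene Txn1 (0.12, SE 0.04).

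Of 8 measured genes of methyl supply with the second methyltransferase N6amt1, 3 were higher and 0 lower (median 0.11). Ahcy, which clears S-adenosylhomocysteine, differed by 0.28 (SE 0.04), the glycine methyltransferase Gnmt by 0.21 (SE 0.06) and the betaine methyltransferase Bhmt by 0.24 (SE 0.04). Of 8 measured glycerol and purine genes, Aprt (0.32, SE 0.07), Gda (0.46, SE 0.14) and Hprt (0.24, SE 0.07) were higher and the glycerol phosphate dehydrogenase gene Gpd2 was lower (-0.79, SE 0.14). Of 4 measured arsenate-reducing or arsenolytic enzymes, 1 was higher, the urea cycle gene Otc (0.52, SE 0.10). None of 7 other aquaporins was called. These lists were chosen with earlier results of these arrays known.

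Markers of other cells moved with the diet as well. S100a8 (-1.25, SE 0.32) and S100a9 (-1.30, SE 0.30) were lower in LRD mice, so 2 of 5 measured neutrophil genes were called, and the mean of the 5 ran from 2.34 to 3.20 in LRD groups and from 2.41 to 4.87 in AIN groups. Of 5 Kupffer cell genes, Clec4f (-0.40, SE 0.09) and Cd5l (-0.37, SE 0.10) were lower. Of 6 surface epithelium genes, which hepatocytes share in part, Krt8 was higher (0.43, SE 0.10). Krt8 was bright on every array (7.08 to 10.77), while Krt5, Krt14, Upk3b and Msln had means of 2.98, 2.31, 2.57 and 2.12. Krt8 therefore need not mark another cell type here. The part of these cells in the diet differences was not tested.

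Arsenite was then compared with the control of its own diet, for each exposure. No gene of the 8 passed in any of the 6 comparisons, so 0 of 48 tests were called by limma, with 3 at an unadjusted p under 0.05. In all probe sets, 0.00888% were called for AIN mice at 100 ppb, 0.00666% higher and 0.00222% lower, and 0 in the other 5 comparisons, so few probe sets of any kind passed. In LRD mice, the differences of As3mt from controls were -0.05 at 10 ppb in water, -0.18 at 100 ppb and 0.17 in food, each with an SE of 0.28. For Gsto1 in LRD mice they were 0.07, 0.07 and -0.01, each with an SE of 0.16. The 95% confidence intervals of Aqp9 in LRD mice reached from -0.35 at the lowest to 0.26 at the highest over the 3 exposures.

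The 3 tests with an unadjusted p under 0.05 were all in AIN mice at 100 ppb. There Aqp8 had 8.71, 3.38, 5.09 and 6.42 in replicates A to D, against 9.36, 6.56, 7.58, 8.41 and 8.16 in AIN controls. Only replicates B, C and D lay below every control, and replicate A did not. The difference was -2.11 (SE 0.54, adjusted p = 0.134). Pnp had 9.14, 10.88, 10.19 and 9.49 at 100 ppb, against 8.93, 9.51, 9.17, 9.61 and 9.15 in controls. Replicates B and C lay above every control and the groups overlapped, with a difference of 0.65 (SE 0.20, adjusted p = 0.234). Gsto1 had 7.87, 7.07, 6.72 and 8.14 at 100 ppb, against 8.26, 7.93, 7.95, 7.56 and 7.84 in controls. Replicates B and C lay below every control, with a difference of -0.46 (SE 0.17, adjusted p = 0.37).

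As3mt in the same 4 mice had 5.66, 7.94, 8.07 and 6.27, against 6.54, 6.47, 6.42, 6.58 and 7.01 in AIN controls. Replicates B and C lay above and replicates A and D below every control, so its difference of 0.38 (SE 0.30, adjusted p = 0.775) averages mice on both sides. The mean of the 5 neutrophil genes was 2.59, 4.87, 4.86 and 3.87 in replicates A to D at 100 ppb, against 2.52 to 3.77 in controls, so replicates B and C were also the highest there. Without replicate A, limma called Aqp8 (-3.05, adjusted p = 0.000164) and Pnp (0.91, adjusted p = 0.00598). Without the 12 arrays apart, which include replicate D, it called Aqp8 (-2.65, adjusted p = 0.0312), Pnp (0.85, adjusted p = 0.0481) and Gsto1 (-0.68, adjusted p = 0.0445). Without AIN control replicate C, Aqp8 alone of the 8 was called (-2.47, adjusted p = 0.0446).

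Of the dim genes, Aqp3 had 2.47, 2.55, 2.60 and 2.90 at 100 ppb, against 2.38, 2.30, 2.36, 2.28 and 2.35 in AIN controls, a difference of 0.30 (adjusted p = 0.733). Gsto2 had 2.16, 2.02, 2.21 and 2.08 at 100 ppb, against 1.94, 2.00, 2.00, 1.97 and 1.99 in controls, a difference of 0.14 (adjusted p = 0.745). In both genes the groups did not overlap, as for 1.69% of all probe sets. In the other 5 exposure comparisons none of the 8 genes had separate groups, where 0.484% to 0.695% of all probe sets did.

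Whether exposure acted differently on the 2 diets was tested as an interaction. None of 24 tests passed and 4 had an unadjusted p under 0.05, and 0 of all probe sets were called in the 3 interactions. For Aqp8 at 100 ppb the LRD effect minus the AIN effect was 2.20 (SE 0.74, adjusted p = 0.701). It was 3.13 (adjusted p = 0.0138) without replicate A of the AIN group at 100 ppb.

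Dose and route were compared within each diet. Aqp8 was lower and Pnp higher in AIN mice at 100 ppb than at 10 ppb in water, and these were the 2 calls among 32 tests, with 6 at an unadjusted p under 0.05. In that comparison 0.713% of all probe sets were called, 0.302% higher and 0.411% lower. Aqp8 had 8.71, 3.38, 5.09 and 6.42 at 100 ppb, against 8.79, 9.61, 9.41, 8.69 and 8.38 at 10 ppb. Replicate A at 100 ppb lay within the 10 ppb values and the other 3 below all of them, with a difference of -3.07 (SE 0.54, limma adjusted p = 0.00575). Pnp had 9.14, 10.88, 10.19 and 9.49 at 100 ppb, against 8.90, 8.58, 8.94, 9.04 and 9.12 at 10 ppb. The groups did not overlap, as for 1.88% of all probe sets, and the difference was 1.01 (SE 0.20, limma adjusted p = 0.00945). The AIN mice at 10 ppb had the highest Aqp8 mean and the second lowest Pnp mean of the 12 groups, so part of each difference lies on that side.

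Both calls rest on few mice. Neither held when only the 2 groups compared entered the fit (adjusted p = 0.67 for Aqp8 and adjusted p = 0.671 for Pnp). Without replicate B at 100 ppb, Aqp8 differed by -2.23 (adjusted p = 0.0714) and Pnp by 0.69 (adjusted p = 0.114), and without replicate C, Pnp differed by 0.92 (adjusted p = 0.0523). Gsto1 was called lower without replicate D (-0.69, adjusted p = 0.0219) and without the 12 arrays apart (-0.72, adjusted p = 0.024), and As3mt was called higher without replicate A (0.95, adjusted p = 0.0417).

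In the same comparison the glucose transporter gene Slc2a2 was lower (-2.10, SE 0.44), as were the glycogen phosphorylase gene Pygl (-0.87, SE 0.22) and Gnmt (-0.54, SE 0.12). The neutrophil genes S100a9 (2.75, SE 0.62), S100a8 (2.66, SE 0.67) and Ngp (1.03, SE 0.22) were higher, so 3 of 5 were called. The part of neutrophils in the Aqp8 and Pnp differences was not tested. In LRD mice at 100 ppb against 10 ppb in water, and in food against water at 10 ppb in either diet, none of the 8 genes and 0 of all probe sets were called.

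In the injected mice, dexamethasone was accompanied by lower Aqp9, with and without arsenite, and no gene of the 8 passed after arsenite alone. Against saline, 3 of 24 tests passed and 7 had an unadjusted p under 0.05. Aqp9 had 9.21, 9.65, 9.58, 9.08 and 9.71 after dexamethasone with arsenite and 9.72, 9.33, 9.71, 9.83 and 9.72 after dexamethasone, against 10.19, 10.14, 10.39, 10.29 and 10.17 after saline. All 10 arrays with dexamethasone, at 9.08 to 9.83, lay below all 10 injected arrays without it, at 10.03 to 10.39, which 0.409% of all probe sets showed in either direction.

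Aqp9 differed from saline by -0.79 (SE 0.12, limma adjusted p = 0.00207) after both agents, a ratio of 0.578, where 0.926% of all probe sets were called and 0.424% were lower. After dexamethasone alone the difference was -0.57 (SE 0.12, limma adjusted p = 0.0151), a ratio of 0.672, where 1.74% were called, 0.753% were lower and 3.81% had groups that did not overlap. Both calls held under each of 9 other settings and without each single array of the groups compared. The second Aqp9 probe set differed by -0.99 (adjusted p = 0.00679) after both agents and by -0.62 (adjusted p = 0.0917) after dexamethasone, so it passed in the first of these comparisons only. After arsenite alone Aqp9 differed from saline by -0.06, with a 95% confidence interval of -0.32 to 0.19. Of 6 surface epithelium genes, which hepatocytes and bile duct cells share in part, Krt8 (-1.94, SE 0.42) and Krt18 (-1.41, SE 0.35) were lower after dexamethasone alone and none was called after both agents. The mean of these 6 genes ran from 4.18 to 4.42 after dexamethasone, against 4.55 to 5.28 after saline. The mean of the 5 neutrophil genes ran from 2.35 to 2.55 after dexamethasone, against 3.08 to 7.38 after saline, and that of 3 pancreatic acinar genes from 3.65 to 3.98, against 4.09 to 4.49. Among the acinar genes, Cpa1 (1.94 to 2.73 over all arrays) and Ctrb1 (2.06 to 2.92) were dim, and only Cela1 was bright (6.05 to 8.84). The mean of that list therefore does not stand for acinar cells. In the surface epithelium, neutrophil and acinar lists the dexamethasone and saline arrays did not overlap, although none of the neutrophil or acinar genes was called. The part of other cells in the Aqp9 difference was not tested.

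Aqp8 was also lower after both agents. It had 5.14, 6.95, 6.89, 6.54 and 7.07 after dexamethasone with arsenite, against 9.42, 8.42, 7.27, 7.71 and 9.34 after saline. All arrays with both agents lay below all saline arrays, as for 2.18% of probe sets, and the difference was -1.92 (SE 0.45, limma adjusted p = 0.0465), a ratio of 0.265. The mean of the 5 neutrophil genes had a median of 2.67 after both agents (2.40 to 5.48), against 3.25 after saline (3.08 to 7.38). The highest with both agents was replicate A, the lowest Aqp8 array, and the highest after saline was replicate E, with Aqp8 at 7.71. The part of neutrophils in the difference was not tested. The call sat at the threshold. It was lost without any one of 9 of the 10 arrays of these groups (adjusted p from 0.0523 to 0.148), without the 12 arrays apart (-1.69, adjusted p = 0.169), with the replicate block (-1.93, adjusted p = 0.0656) and with only the 2 groups compared (adjusted p = 0.151). The count of calls against saline also fell from 3 to 2 without single arrays of the other injected groups, such as dexamethasone replicate C or arsenite replicate B. After dexamethasone alone Aqp8 differed by -1.09 (SE 0.45, adjusted p = 0.332) and after arsenite alone by -0.79 (SE 0.45, adjusted p = 1.0).

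As3mt had 7.74, 6.96, 7.29, 7.25 and 7.04 after both agents and 7.08, 7.64, 7.02, 7.03 and 7.25 after dexamethasone, against 7.12, 6.80, 6.79, 7.15 and 6.89 after saline. The groups overlapped, and the differences were 0.31 (adjusted p = 0.758) and 0.26 (adjusted p = 0.774), each with an SE of 0.23. Injected arsenite alone gave As3mt values of 7.38, 6.24, 5.96, 7.38 and 6.81, on both sides of the saline values, with a difference of -0.20 (SE 0.23, adjusted p = 1.0). In that comparison 0 of all probe sets were called, and 1 of the 8 genes, the dim Aqp7, had an unadjusted p under 0.05. Gsto1 differed from saline by 0.58 (SE 0.27, adjusted p = 0.504) after both agents, and Pnp by 0.07 (SE 0.27, adjusted p = 0.974).

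Between the injections, Aqp9 was lower after both agents than after arsenite alone, by -0.72 (SE 0.12, limma adjusted p = 0.00441), where 0.881% of all probe sets were called. The groups did not overlap, as for 2.01% of probe sets, since arsenite alone gave 10.15, 10.24, 10.37, 10.03 and 10.07. The second probe set differed by -1.03 (adjusted p = 0.00562). With only these 2 groups in the fit the adjusted p was 0.0685. This was the only call of 24 tests, with 3 at an unadjusted p under 0.05, and no gene or probe set was called for both agents against dexamethasone alone (Aqp8 differed by -0.83 with no overlap, as for 0.824% of probe sets) or for the interaction of the agents. These comparisons share groups with those against saline.

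**Figure D4:**
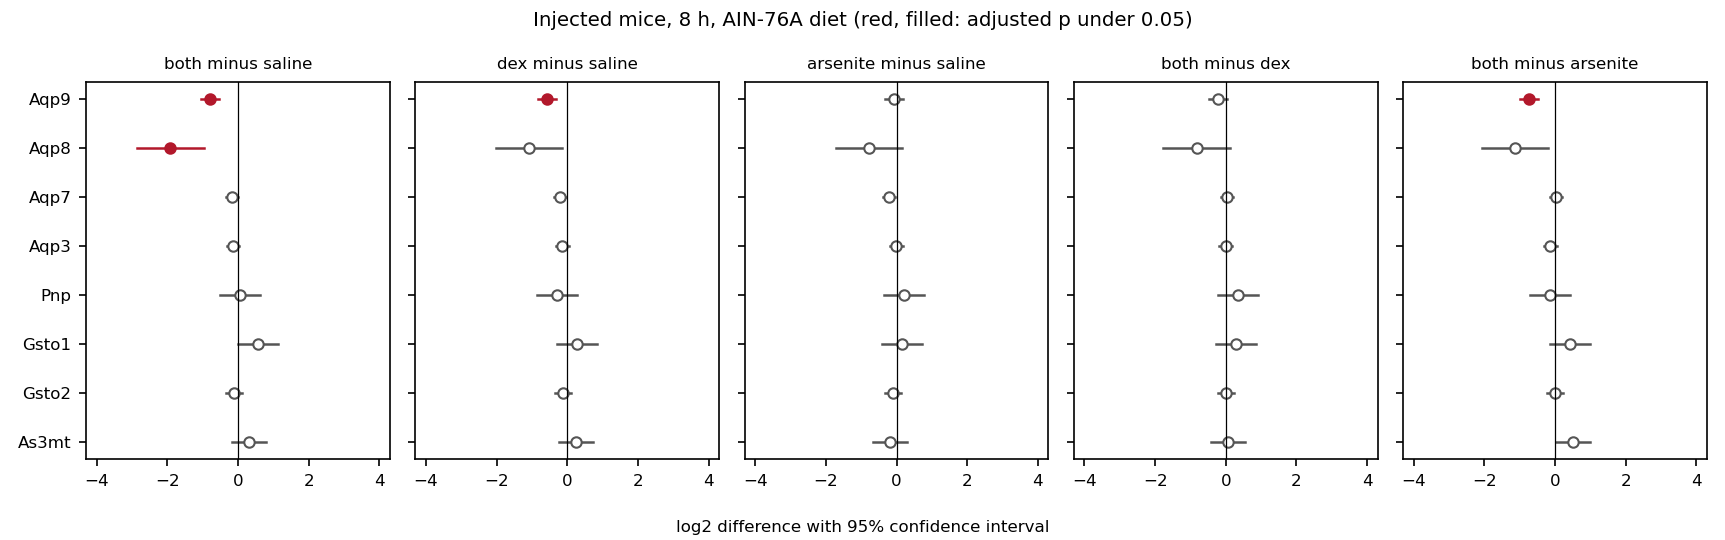
Difference between injected groups (horizontal axis, log2, with its 95% confidence interval) for each of the 8 genes; dex is dexamethasone, both is dexamethasone with arsenite, and filled red points passed the test. Aqp9 passed in the 3 panels that set dexamethasone against no dexamethasone (-0.79, -0.57 and -0.72), and Aqp8 passed only for both agents against saline (-1.92).

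Both subunit genes of the enzyme that limits glutathione synthesis were lower after dexamethasone too, while Gss, of the next step, did not pass (-0.07, SE 0.26). Gclc, the catalytic subunit, averaged 7.42 ± 0.08 after dexamethasone and 9.16 ± 0.38 after saline (SD, n = 5 each), a difference of -1.74 (SE 0.27, limma adjusted p = 0.00119). Of the 10 thiol supply genes, 3 were lower and 0 higher, the others being Gclm (-0.64, SE 0.16) and Txn1 (-0.38, SE 0.09). After both agents 2 of 10 were lower, Gclc (-1.62, SE 0.27) and Gclm (-0.69, SE 0.16). In the methyl supply list Bhmt was higher after dexamethasone (0.47, SE 0.11) and Ahcy after both agents (0.62, SE 0.14), each 1 of 8. Of all probe sets, 0.984% were called higher and 0.753% lower after dexamethasone. After both agents 0.502% were called higher and 0.424% lower. No other arsenic transporter, other aquaporin or arsenate-reducing enzyme of the lists was called against saline. After arsenite alone no gene of any list was called.

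Within groups, mice that were high in Pnp and As3mt tended to be low in Gsto1 and Aqp8. This was seen over deviations from the group means on all 59 arrays, in a family of 15 relations chosen after the data were seen, with permutation within groups and Benjamini-Hochberg adjustment. Aqp8 and Pnp had Pearson r = -0.753 (two-sided permutation p = 1e-05, the lowest p that so many permutations allow, adjusted p = 0.00015) and Spearman rho = -0.631 (permutation p = 8e-05). As3mt and Gsto1 had r = -0.635 (permutation p = 0.00138, adjusted p = 0.00429) and rho = -0.51 (permutation p = 0.00165). As3mt and Pnp had r = 0.624 (permutation p = 0.00229, adjusted p = 0.00429) and rho = 0.469 (permutation p = 0.00367). Without the 2 arrays farthest from the median in the first gene of each pair (Aqp8, As3mt and As3mt), these r were -0.66, -0.579 and 0.578. Arrays far out only in the second gene stayed in. Gsto1 and Pnp had r = -0.663 (permutation p = 0.00151, adjusted p = 0.00429) and rho = -0.482 (permutation p = 0.00402). As3mt and Aqp8 had r = -0.609 (permutation p = 0.00271, adjusted p = 0.00452) and rho = -0.422 (permutation p = 0.00702). Gsto1 and Aqp8 had r = 0.531 (permutation p = 0.00807, adjusted p = 0.0121). Aqp8 and Aqp9 had r = 0.396 (permutation p = 0.0258, adjusted p = 0.0352), but rho = 0.262 (permutation p = 0.0782). The r of Aqp9 with As3mt (-0.282), Gsto1 (0.237) and Pnp (-0.131) did not pass.

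These relations rest in part on 2 groups. Without the AIN mice at 100 ppb, r was -0.647 for Aqp8 with Pnp, -0.515 for As3mt with Gsto1 and 0.471 for As3mt with Pnp. Without those and the mice injected with arsenite alone, r was -0.59, -0.299 and 0.146. Gsto1 with Pnp had r = -0.626 without the first group and -0.35 without both. As3mt with Aqp8 had r = -0.34 without the first group and -0.167 without both. In the LRD mice r was -0.119 for Aqp8 with Pnp, against -0.863 in the AIN mice of the 5-week experiment, and the difference between the diets was not tested. As3mt in LRD mice had r = -0.223 with Gsto1, 0.303 with Pnp and -0.362 with Aqp8, and Gsto1 with Pnp had r = 0.0326. The 5-week arrays gave r = -0.767 for Aqp8 with Pnp and the injected arrays r = -0.789. Without the 12 arrays apart it was -0.776.

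Mice injected with arsenite alone also differed widely among themselves. Replicates A and E had Pnp at 9.93 and 10.27, As3mt at 7.38 in each, Gsto1 at 7.36 and 6.54 and Aqp8 at 6.57 and 6.86. Replicates B and D had Pnp at 8.69 and 8.70, As3mt at 6.24 and 5.96, Gsto1 at 8.12 and 8.22 and Aqp8 at 8.06 and 8.43. Replicate F had Pnp at 9.25, As3mt at 6.81, Gsto1 at 8.11 and Aqp8 at 8.31. The mean of the 5 neutrophil genes was 3.80 in A and 4.45 in E, and 2.90 in B and 2.39 in D. In F it was 3.72, close to that of A, while Gsto1 and Aqp8 in F were close to those of B and D. These mice are described one by one and were not grouped for a test.

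The mean of the 5 neutrophil genes, of which Camp, Elane and Ngp were dim, went with these genes as well. Its r was 0.518 with As3mt (permutation p = 4e-05, adjusted p = 0.0003, rho = 0.562, permutation p = 0.00012), -0.607 with Aqp8 (permutation p = 0.00031, adjusted p = 0.00155, rho = -0.512, permutation p = 0.00117), 0.537 with Pnp (permutation p = 0.00203, adjusted p = 0.00429, rho = 0.519, permutation p = 0.00092) and -0.532 with Gsto1 (permutation p = 0.00187, adjusted p = 0.00429, rho = -0.585, permutation p = 0.00011). With Aqp9 it was -0.281 (permutation p = 0.0605, adjusted p = 0.0756). Without the AIN mice at 100 ppb and the mice injected with arsenite alone, r with the neutrophil mean was 0.322 for As3mt, -0.534 for Aqp8, 0.384 for Pnp and -0.451 for Gsto1. In LRD mice it was 0.0674 for As3mt, -0.353 for Aqp8, 0.0558 for Pnp and -0.471 for Gsto1. The part of neutrophils in the relations between the genes was not tested.

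**Figure D5:**
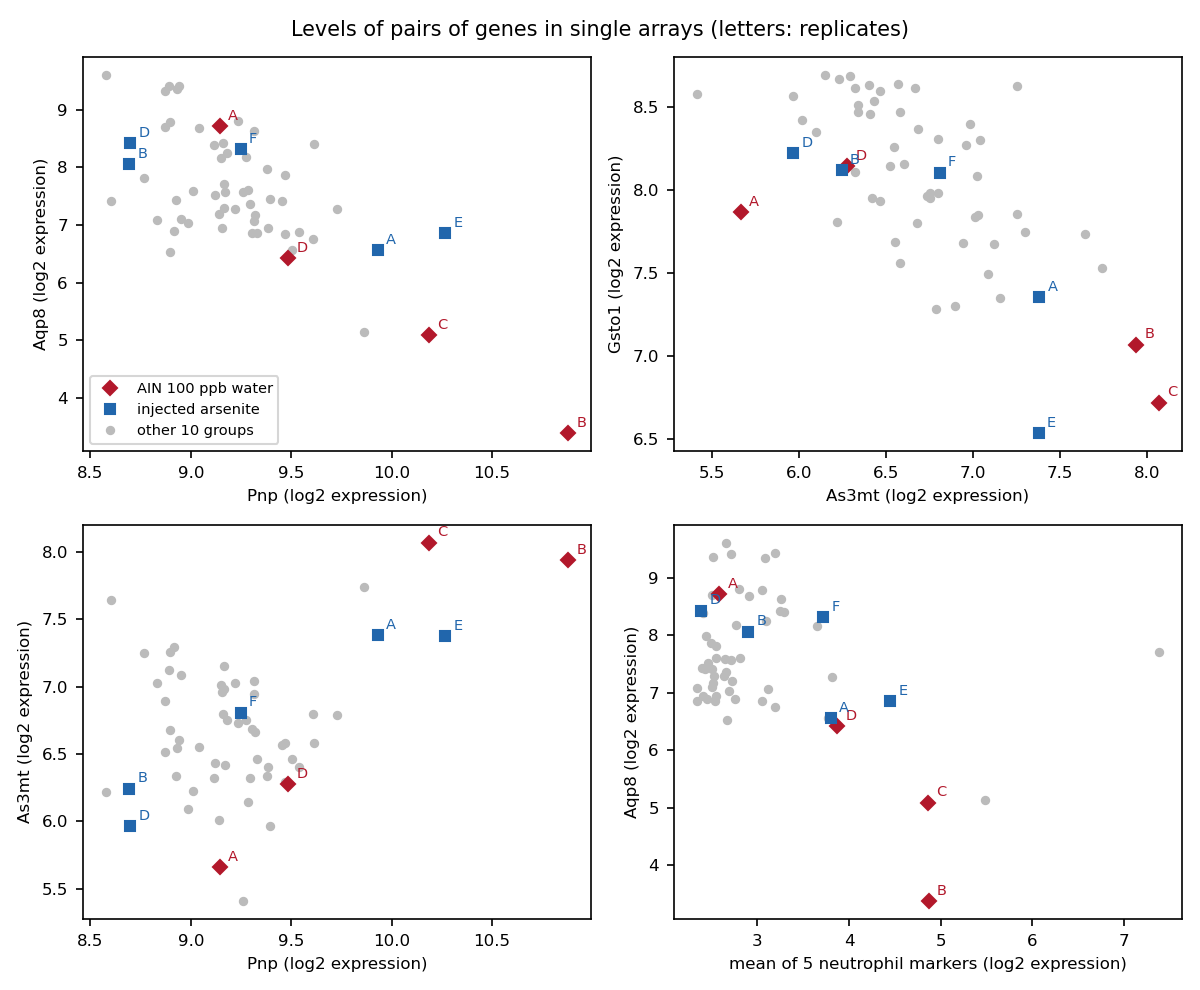
Log2 expression of pairs of genes on each of the 59 arrays, with AIN mice at 100 ppb as red diamonds and mice injected with arsenite alone as blue squares, each lettered by replicate; the last panel has the mean of 5 neutrophil genes on its horizontal axis. Replicates B and C at 100 ppb stand at high Pnp and As3mt and low Aqp8 and Gsto1, and Aqp8 falls as Pnp increases (r = -0.753 for deviations from group means).

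Across the 12 group means, other genes followed each gene, among 6346 genes whose group means range over at least 0.5. Gsta4, an alpha-class glutathione transferase, was nearest to Gsto1 (Pearson r = 0.983 over 12 groups), followed by Fam210a (0.963) and Bcap29 (0.961). The organic anion carrier Slco1b2 and the aldehyde dehydrogenase Aldh9a1 were nearest to Aqp9 (0.978 each), with Enpp5 at 0.969. Cnp (0.968), the phosphoethanolamine enzyme gene Pcyt2 (0.960) and the glycerol phosphate acyltransferase gene Gpam (0.940) were nearest to Aqp8. Ddit4 (0.964), the steroid hydroxylase gene Cyp17a1 (0.964) and Tedc2 (0.963) were nearest to As3mt, and Zdhhc12 (0.940), Hacd3 (0.917) and Usb1 (0.896) to Pnp. The dim genes had less close neighbours, with Rad9a (0.903), Tmem116 (0.862) and Sox10 (0.836) for Aqp3, Mpo (0.851), Plekhf1 (0.760) and Tesk2 (0.720) for Aqp7, and A930033H14Rik (0.832), Csrnp1 (0.811) and Pim3 (0.792) for Gsto2. The 12 means share controls, diet and arrays, so these are descriptions with no test.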

How the data were processed

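RMA log2 values, 1 per probe set and array, were deposited by the authors; background correction, normalization and summarisation with RMA are named per the submitters' processing notes, while which software ran it, and how it was set, is not stated in these sources. No scanner file was used here. The table has 45101 probe sets. Without its 64 controls, 45037 were tested with no filter. Symbols came from the platform annotation (34945 probe sets with 1 symbol, 932 with several, the rest unnamed), and 1 probe set shared by Pnp and another gene was left out. All 8 genes matched the RefSeq table of GRCm38.p6 by gene ID.

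Linear models of group means (limma 3.58.1, R 4.3.3) were run apart for 39 arrays (5 weeks, 8 groups) and 20 arrays (injected, 4 groups), with moderated statistics in 24 contrasts and Benjamini-Hochberg adjustment over all probe sets of a contrast. The script was tested on simulated data. No 2 arrays were duplicates (closest pair r = 0.994, SD of the difference 0.22). The alternatives were 1 fit of all 59 arrays, only the groups compared, a replicate block, quantile normalization, a variance trend, only probe sets above the median, the mean of a gene's probe sets, the 12 arrays apart as a block or left out, and leaving out each array. Named genes were the 8 genes, up to 4 called members with the smallest p of each pathway list per contrast and the 3 genes most like each of them. The genes and lists were chosen with earlier results of these data known. Some genes of the lists were not analysed here.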

Additional observations from a re-analysis of the deposited data

Results flagged for a closer look

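Single arrays stood far from the rest of their group in 10 of 96 tests by Dixon's criterion, which chance gives in about 1 in 20, and 7 of the 10 were among the 12 arrays that lie apart in their groups. Aqp9 was low in 4 of those 7: 10.15 in LRD replicate F at 10 ppb in water, 10.34 in LRD replicate D at 100 ppb, 10.262 in LRD control replicate B and 9.329 in dexamethasone replicate C. The dim Aqp3 was high in the other 3: 3.578 in AIN replicate C at 10 ppb in water, 3.181 in LRD replicate D at 100 ppb and 2.691 in saline replicate F. As3mt was 7.012 in AIN control replicate F, where the next array had 6.578. Aqp7 was 2.32 in LRD replicate D at 10 ppb in water. Aqp8 was 5.137 after both agents in replicate A, where the next array had 6.535.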

How the results depend on the processing

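No result changed sign while called, and over the 8 genes in 24 contrasts 4056 values kept their side of the threshold, 19 calls were lost and 21 gained. For single arrays left out, these totals count only arrays of the groups in the contrast. Leaving out an array of another group changes the shared spread, and calls changed in that way are not in these totals. Of the counts of calls, diet within levels went from 1 to 3 with only the groups compared, to 2 with only probe sets above the median and to 2 with the arrays apart as a block. Exposure within diets had 0, and 3 without the 12 arrays apart. With only the groups compared, dose and route had 0 in place of 2 and the comparisons between injections 0 in place of 1. Those fits hold fewer arrays and estimate the spread from the compared groups only, and why calls were lost or gained was not tested.

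Leaving out each array gave 2 to 3 calls for the averaged diet, 1 to 6 for diet within levels, 0 to 2 for exposure, 0 to 1 for the interaction, 0 to 3 for dose and route, 2 to 3 for injections against saline, and 1 throughout between injections. Leaving out replicate A of the AIN group at 100 ppb gave the 6 and the 2. Without it As3mt (-1.23, adjusted p = 0.0037), Aqp8 (2.55, adjusted p = 0.000275) and Pnp (-0.87, adjusted p = 0.0037) differed by diet at 100 ppb. Gsto1 kept its call there, and the rest of the 6 lay at other exposure levels and are not named here. Gsto1 in controls was called without AIN control replicate B (0.67, adjusted p = 0.0437).

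Replicate letters did not mark pairs: same-letter deviations correlated at a median of -0.04 over 111 pairs of 5-week arrays and 0.05 over 25 of injected arrays. The replicate block gave 2, 1, 0, 0, 2, 2 and 1 calls in the 7 families, against 2, 1, 0, 0, 2, 3 and 1 without it; Aqp9 after dexamethasone had an adjusted p of 0.0433.

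The dim genes allow no firm statement and the arrays number 4 or 5 a group. Of the 19 lost calls counted in that way, 12 were Aqp8 after both agents against saline.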
